A study of Drosophila melanogaster with 44 samples.

Results

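Transcript levels of 10 Drosophila melanogaster genes that position mRNAs in the oocyte were described here, out of 17807 genes in the gene tables of the series. The genes are osk, bcd, grk, stau, BicD, egl, orb, exu, swa and sqd. They were taken by FlyBase symbol, and each of the 10 was found in all 12 mRNA-seq libraries. The values are RSEM expected counts (read pairs assigned to a gene) and TPM (transcript abundance, that is counts divided by transcript length and scaled to the same sum in each library).

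The anterior-posterior and dorsal-ventral axes of the fly embryo are laid down in the oocyte by mRNAs that are carried along microtubules and anchored at a defined part of the cortex. Nurse cells, which share a cytoplasm with the oocyte, make most of these mRNAs. Proteins bind the mRNAs in the nucleus or cytoplasm, hold their translation in check during transport, and couple them to motors such as dynein and kinesin. osk mRNA goes to the posterior pole, bcd mRNA to the anterior pole, and grk mRNA to the corner beside the oocyte nucleus, from where the Grk protein signals to the overlying follicle cells.

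The study asked how Mod(mdg4), an insulator protein that the mod(mdg4) gene makes in many splice variants, restrains the telomeric retrotransposon HeT-A. Mod(mdg4)-N mutant ovaries (y1 w1118 flies carrying Mod(mdg4) RN1-2/1-2, n = 3) came from a single Cas9-made line that is homozygous for a frameshift in the exon of variant N, and wild-type ovaries (y1 w1118, n = 3) were their control. Both were whole ovaries of flies kept at 25 °C, so germline and follicle cells were measured together, and the age of the females is not given in the labels. Ovarian somatic cells (OSCs), a line derived from follicle cells and grown in medium that contains fly extract, were treated with siRNA against all variants (Mod(mdg4)-All KD, n = 2), against variant N (Mod(mdg4)-N KD, n = 2) or against EGFP (EGFP KD, the control, n = 2). The labels do not say whether replicates came from separate flies or cultures, so p-values measure the spread between these samples, which may be technical.

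The libraries held between 13728168 and 20244538 counts, and replicates of every group differed by more than counting noise. mod(mdg4), summed over its variants, stood at 62.1 and 73.0 TPM in Mod(mdg4)-All KD, against 478 and 448 TPM in EGFP KD. In Mod(mdg4)-N KD it stood at 434 and 403 TPM, and in ovaries at 359 to 625 TPM in mutants and 528 to 792 TPM in wild type, a sum that cannot show the loss of 1 variant. The separately annotated precursor pre-mod(mdg4)-N had 41.1 to 52.0 counts in mutant ovaries and 9.27 to 41.9 in wild type, so the gene tables check the Mod(mdg4)-All KD label alone, and directions between ovaries rest on the labels. Summed markers of late follicle cells, which make eggshell, were at 41325 to 49075 TPM in mutant ovaries and at 11682 to 31887 TPM in wild-type ovaries, without overlap. Of these 16 markers, 3 vitelline membrane genes (Vm26Aa, Vm26Ab and Vm34Ca) were called higher in mutants and none lower. Over all 7934 genes tested in this comparison 18.1% were called, so 3 of 16 stands close to the background. The other 13 were not called, and log2 fold changes of the 16 lay between -1.50 and 2.06. In each OSC group 10 of the 16 were at or under 3 counts in every library, though not the same 10 in each. Vm26Aa alone was at 18041, 13229 and 9704 TPM in mutants, against 5176, 6111 and 5484 TPM in wild type. Wild-type replicate 1 stood apart in chorion genes, for example Cp36 at 615, 1099.8 and 3436 TPM in mutants, against 1.07, 1481 and 2646 TPM in wild type, and without it the summed markers of wild type were at 25160 and 31887 TPM. Summed germline markers were at 903 to 999 TPM in mutant ovaries and at 786 to 807 TPM in wild-type ovaries, and the 11 markers went both ways. Of these, 4 were called higher (bam, bgcn, del and zpg) and 2 lower (rhi and vas), where 18.1% of all genes tested were called. Log2 fold changes of the 11 lay between -2.01 (rhi) and 1.79 (bgcn). bgcn passed the filter on low counts only through the mutant libraries, with 23 to 54 counts there and 9 to 12 in wild type. zpg, the highest of the 11, was at 394 to 418 TPM in mutants and 264 to 320 TPM in wild type. The germline helicase vas stood at 89.2 to 139 TPM in the 6 ovary libraries and at 1.23 to 2.98 TPM in the 6 OSC libraries. In whole ovaries, fewer cells of a type and less RNA per cell cannot be told apart.

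The upstream sequences of 3 of the genes are shown because their levels set them apart from each other in the results that follow. osk and swa were near or at 0 in OSCs and high in ovaries, and bcd was called lower in mutant ovaries. Each run covers the 120 bases before the annotated gene start and the 10 bases from it, read 5′ to 3′ on the gene's strand of Release 6 (dm6). Capitals mark matches, on either strand, to 3 motifs of fly core promoters, TATCGAT (the core of the DNA replication-related element), TATAAA (the TATA box) and TCAGT (the initiator).
osk, chr3R:8935006-8935135, plus strand: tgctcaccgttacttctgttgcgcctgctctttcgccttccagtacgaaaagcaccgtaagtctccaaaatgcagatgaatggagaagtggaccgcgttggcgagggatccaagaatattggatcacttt
swa, chrX:6365699-6365828, minus strand: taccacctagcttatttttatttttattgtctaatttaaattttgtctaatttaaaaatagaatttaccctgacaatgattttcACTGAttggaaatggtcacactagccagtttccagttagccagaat
bcd, chr3R:6759457-6759586, minus strand: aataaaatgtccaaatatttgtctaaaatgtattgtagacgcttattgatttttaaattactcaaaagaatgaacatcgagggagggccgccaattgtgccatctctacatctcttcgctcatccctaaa

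In these windows swa held 1 match to TCAGT on the opposite strand, and osk and bcd held no match to any of the 3 motifs. Among windows of the same length at 13945 protein-coding genes, 24.4% held TATAAA, 32.6% held TCAGT and 13.8% held TATCGAT. Outside the windows shown, exu held 4 matches to TATCGAT and 1 to TCAGT, grk and egl held 1 match each to TCAGT, and stau, BicD and orb held none. Matches were counted on each strand apart, so matches that overlap count separately. A match is a description of the letters and not a site of binding. The upstream part of the osk window also holds exon sequence of the antisense RNA asRNA:CR44020.

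In wild-type ovaries the order of the 10 genes by TPM, which is a level per length, ran from osk, exu, sqd, swa and orb to bcd, BicD, stau, egl and grk. osk, the posterior determinant that assembles pole plasm, was at 804, 657 and 791 TPM and ranked at place 171 of 11938 genes above 0. exu, whose protein is needed to bring bcd mRNA to the anterior, was at 381, 423 and 481 TPM. sqd, a nuclear RNA-binding protein (hnRNP) needed to place grk mRNA, was at 321, 335 and 346 TPM. Each of the first 5 genes stood above the next in all 3 wild-type libraries.

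swa, which also acts on bcd mRNA, was at 281, 296 and 292 TPM in wild-type ovaries. orb, the oocyte member of the CPEB family that binds mRNA 3′ ends and promotes translation, was at 191, 161 and 136 TPM. bcd, the anterior morphogen, was at 67.8, 77.6 and 88.2 TPM. BicD, the dynein adaptor, was at 68.2, 74.1 and 76.5 TPM, and stau, a protein that binds double-stranded RNA in osk and bcd mRNA, was at 56.5, 64.0 and 77.9 TPM. egl, the partner of BicD that binds the mRNA cargo, was at 56.2, 61.4 and 60.4 TPM. The ranges of bcd, BicD, stau and egl overlapped from each to the next, so their order is not fixed. grk, a ligand of the epidermal growth factor receptor, was at 28.9, 22.1 and 22.6 TPM, below every value of egl.

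**Figure D1:**
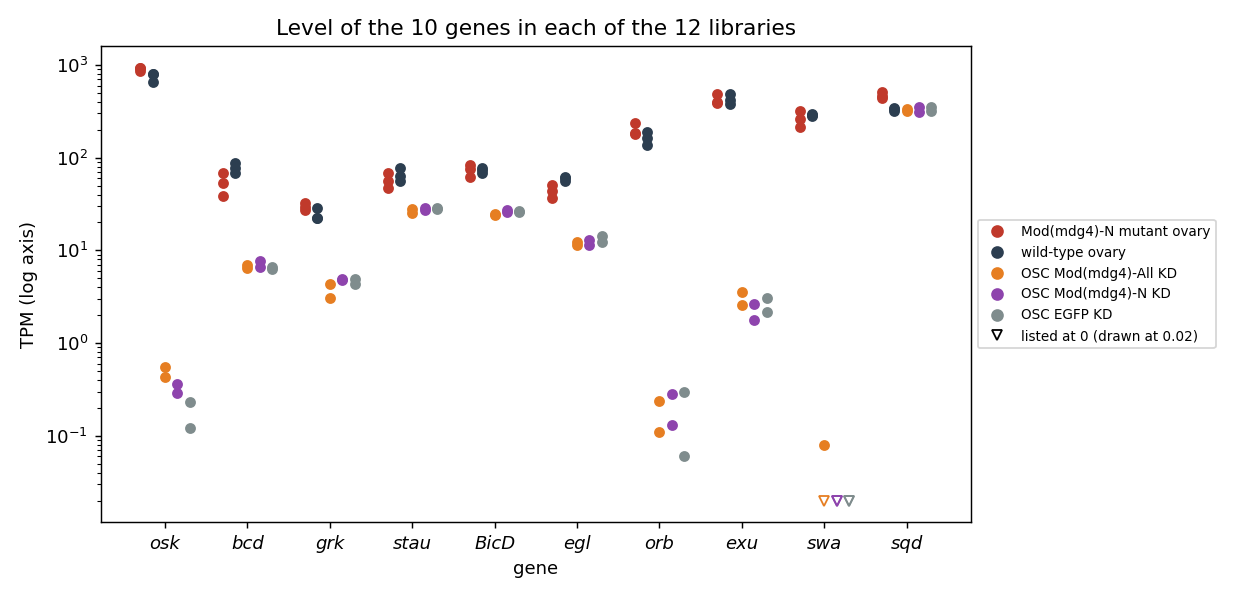
TPM of each of the 10 genes (log axis) in the 12 libraries, 1 point per library, with mutant and wild-type ovaries to the left of the 3 OSC groups. osk, orb, exu and swa lie far higher in every ovary library than in any OSC library, whereas sqd lies between 309 and 353 TPM in OSCs and between 321 and 346 TPM in wild-type ovaries; a downward triangle marks a library in which swa was listed at 0.

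Wild-type ovaries were next compared with EGFP KD OSCs, which asks which of these genes follicle-derived cells in culture also transcribe. All 10 genes were called at an adjusted p under 0.05 in edgeR's quasi-likelihood F test, 9 higher and 1 lower in ovaries, where 68.8% of the 8685 genes tested were called. The libraries differ in tissue, culture and cell composition at once, and these cannot be told apart.

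In OSCs osk, orb and swa were at or near 0. In this comparison they passed the filter on low counts only through the ovary libraries, where they are high. Their calls and fold changes therefore describe these levels and add no support. swa had no count in either EGFP KD library and 7377, 7642 and 8153 counts in wild-type ovaries, which makes it at least 4913-fold higher in ovaries when 3 counts over both EGFP KD libraries are taken as the floor. osk had 4.97 and 9 counts in EGFP KD, and its log2 fold change was 11.89 (SE 0.30, adjusted p = 6.98e-06). orb had 6 and 24 counts in EGFP KD, and its log2 fold change was 9.34 (SE 0.52, adjusted p = 6.65e-05). Such counts are few, and in OSCs osk and orb were not told apart in EGFP KD, at 0.12 and 0.23 TPM for osk and 0.06 and 0.30 TPM for orb.

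exu, bcd, grk and egl were measured in OSCs, between 2.19 and 14.3 TPM in EGFP KD. exu was at 2.19 and 3.04 TPM in EGFP KD, with a log2 fold change of 6.90 (SE 0.20), and bcd was at 6.27 and 6.59 TPM, with a log2 fold change of 3.44 (SE 0.13). grk was at 4.97 and 4.38 TPM (log2 fold change 2.26, SE 0.21) and egl at 12.4 and 14.3 TPM (log2 fold change 2.01, SE 0.09). The exons of grk overlap those of Akap200 on the opposite strand over 212 bases, and Akap200 had 23128 to 24523 counts in EGFP KD. The libraries were made with a stranded kit, but the RSEM options the study lists name no strand setting, so the low grk level in OSCs is uncertain. exu likewise shares 397 exon bases with galla-1 on the opposite strand, which had 404 to 415 counts in EGFP KD.

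BicD, stau and sqd were the highest of the 10 genes in OSCs and differed least from ovaries. BicD differed by a log2 fold change of 1.35 (SE 0.07) and stau by 0.95 (SE 0.11), with 26.2 and 26.6 TPM for BicD and 28.4 and 27.9 TPM for stau in EGFP KD. sqd was lower in ovaries by the normalized counts, at -0.36 on the log2 scale (SE 0.10, adjusted p = 0.019), but not by TPM, where limma gave -0.0025 (adjusted p = 0.98). On the TPM scale the median of all genes lay at 0.14. Leaving out wild-type replicate 2 or EGFP KD replicate 1 also lost the call of sqd, and the other 9 genes were called in every fit.

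RSEM's effective length of a gene is a mean over its transcripts, weighted by their abundance, and it moves when a gene's transcripts are used in other proportions. exu was at 1804 to 1815 bases in the 6 ovary libraries and at 2102 to 2309 bases in the 6 OSC libraries, and stau at 4323 to 4505 bases in ovaries and 4742 to 4845 bases in OSCs. Neither gene's ranges overlapped. In OSCs exu had 56.1 to 104 counts, and it shares exon bases with galla-1, so its effective length there is uncertain. sqd was at 2828 to 3032 bases in wild-type ovaries and at 3322 to 3407 bases in OSCs. orb overlapped, at 4285 to 4514 bases in ovaries and 3797 to 6952 bases in OSCs, where few counts stood behind it. For osk, grk, egl and swa, all ovary values lay within 4 bases of each other and above every OSC value, by small steps such as 2658 to 2661 bases in ovaries and 2646 to 2651 bases in OSCs for osk. osk, grk and swa moved by the same amount from library to library, so these steps belong to the library and not to transcript proportions.

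Across the 12 libraries, every one of the 10 genes but sqd followed the ovary against OSC contrast, and the gene most like each was named by Pearson's r of normalized log2 CPM (counts scaled to library size) over 9086 genes. The best match of osk was Pvf1 (r = 0.9987), that of swa was zyd (r = 0.9996), that of exu was yl (r = 0.9987), the vitellogenin receptor of the oocyte, and that of bcd was homer (r = 0.9983). BicD was matched by CG13113 (r = 0.9984), orb by Sfxn1-3 (r = 0.9981), egl by CG17168 (r = 0.9980), grk by fs(1)N (r = 0.9951) and stau by CG9485 (r = 0.9942). sqd was matched by Spp (r = 0.98), and its highest r with another of the 10 genes was -0.07, with grk. These 12 points fall into ovary and OSC clusters and share normalization, so the values describe mainly that contrast.

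Mutant ovaries were then compared with wild-type ovaries, the tissue where these mRNAs act. The mutants are a single line, so the loss of variant N and other differences of that line cannot be told apart. Of the 10 genes, sqd was called higher and bcd and egl were called lower in mutants, and 7 were not called. In all, 18.1% of the 7934 genes tested were called (929 higher and 509 lower), so 3 of 10 stands close to the background. The median log2 fold change of the 10 genes was -0.03. Values from here are CPM after TMM normalization, which adjusts library sizes for their composition (normalized CPM), unless TPM is named. All 3 called genes had groups without overlap on this scale, as 45.2% of all genes tested did.

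**Figure D2:**
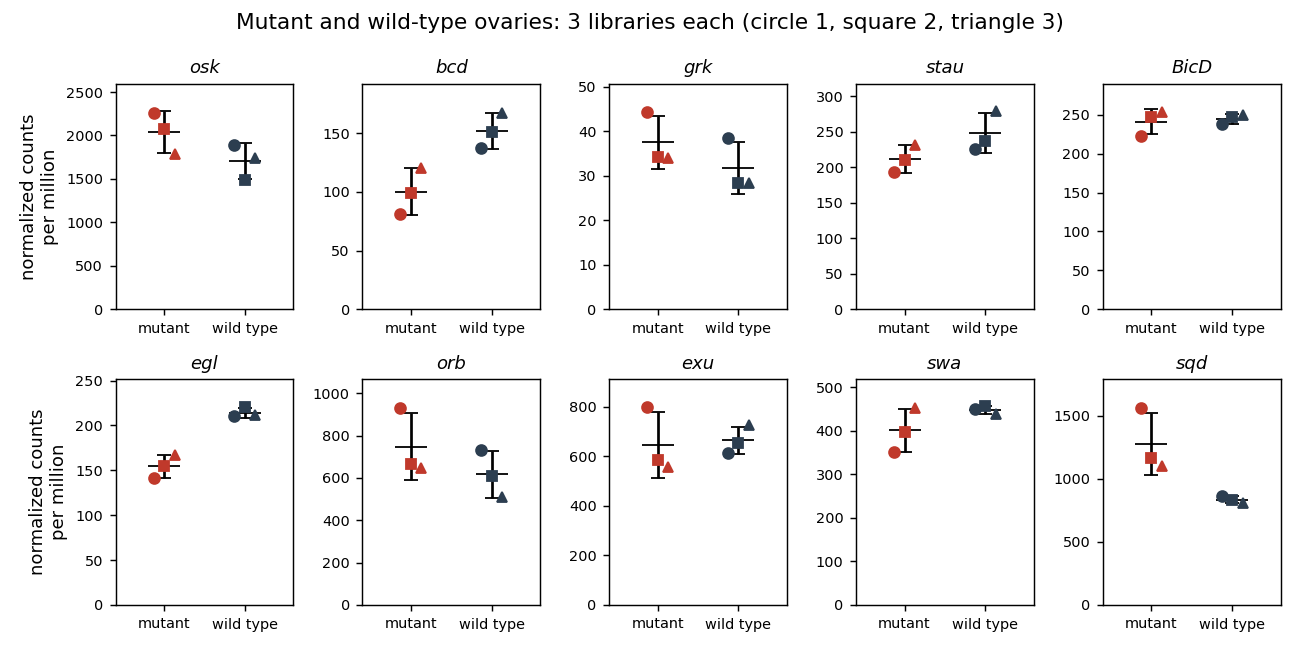
Normalized CPM of each gene in 3 mutant libraries (left, red) and 3 wild-type libraries (right, dark), with mean and SD as bars and the replicate number as symbol. The groups of bcd, egl and sqd do not overlap, and those of the other 7 genes do.

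Of the 3 mRNAs that are themselves localized, bcd was at 81.1, 99.2 and 121 normalized CPM in mutant ovaries, against 137, 151 and 167 normalized CPM in wild-type ovaries. Every mutant library lay below every wild-type library, and the log2 fold change was -0.60 (SE 0.16, adjusted p = 0.045). By TPM the groups just met, with 68.1 TPM in mutant replicate 3 and 67.8 TPM in wild-type replicate 1. The bcd gene lies on 3R from 6755842 to 6759466, minus strand. Within same-numbered pairs of libraries bcd was lower in the mutant by 0.76, 0.61 and 0.47 on the log2 scale. With groups apart in normalized CPM any pairing gives this direction, so it adds no support.

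osk was at 2262, 2074 and 1788 normalized CPM in mutant ovaries, against 1894, 1488 and 1745 normalized CPM in wild-type ovaries. The groups overlapped, and the log2 fold change of 0.26 was not called (95% interval -0.07 to 0.58, adjusted p = 0.21). By TPM, at 932, 937 and 868 in mutants and 804, 657 and 791 in wild type, all mutant libraries lay above the wild-type ones. The osk locus (3R, 8935126 to 8938395) carries the antisense RNA asRNA:CR44020, which overlaps 162 of its exon bases and had 83 to 173 counts in mutants and 22 to 32 counts in wild type. lncRNA:osk, on the same strand, shares 2251 exon bases and had at most 30.9 counts in any library, far below osk.

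grk was at 44.3, 34.1 and 34.0 normalized CPM in mutant ovaries, against 38.6, 28.4 and 28.3 normalized CPM in wild-type ovaries. The groups overlapped, with a log2 fold change of 0.24 (95% interval -0.17 to 0.65, adjusted p = 0.34). In each same-numbered pair grk was higher in the mutant, by 0.20 to 0.26 on the log2 scale. Its opposite-strand neighbour Akap200 had 9808 to 11486 counts in mutants and 10444 to 11214 counts in wild type.

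Among the RNA-binding proteins, sqd was at 1561, 1169.6 and 1100.1 normalized CPM in mutant ovaries, against 863, 831 and 811 normalized CPM in wild-type ovaries. The groups did not overlap, and the log2 fold change was 0.61 (SE 0.14, adjusted p = 0.034). sqd was the one gene of the 10 that was also called on the TPM scale, at 510.4, 441 and 465 TPM in mutants and 321, 335 and 346 TPM in wild type. The sqd gene lies on 3R from 13634862 to 13646304, minus strand. Its effective length was 3198 ± 147 bases in mutants and 2925 ± 103 bases in wild type (SD, n = 3 each, no overlap). In OSCs it was 3322 to 3407 bases. A two-sided exact permutation test of mutants against wild type gave p = 0.1, and it can go no lower with 3 against 3. BicD (3900 against 3930 bases) and exu (1807.5 against 1814.6 bases) were also apart, lower in mutants, with the same p. These p-values were not adjusted over the 10 genes.

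The other RNA-binding proteins were not called. stau was at 193, 210.2 and 232 normalized CPM in mutant ovaries, against 226, 237 and 279 normalized CPM in wild-type ovaries, with a log2 fold change of -0.23 (95% interval -0.50 to 0.05, adjusted p = 0.19). orb was at 931, 668 and 645 normalized CPM in mutants and at 733, 611 and 511 normalized CPM in wild type, with a log2 fold change of 0.28 (95% interval -0.18 to 0.73, adjusted p = 0.32). Mutant replicate 1 was the highest library of both orb and exu. exu was at 798, 582 and 555 normalized CPM in mutants and at 614, 654 and 723 normalized CPM in wild type, with a log2 fold change of -0.04 (95% interval -0.41 to 0.33, adjusted p = 0.86). swa was at 353, 398 and 452 normalized CPM in mutants and at 451, 456 and 439 normalized CPM in wild type, with a log2 fold change of -0.16 (95% interval -0.41 to 0.08, adjusted p = 0.28).

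The adaptors BicD and Egl act as a complex, and of their transcripts egl was called lower and BicD was not called. egl was at 141, 154 and 167 normalized CPM in mutant ovaries, against 210.0, 220.4 and 211 normalized CPM in wild-type ovaries. The groups were apart by more than the spread within either, and the log2 fold change was -0.47 (SE 0.09, adjusted p = 0.019). BicD was at 223, 247 and 254 normalized CPM in mutants and at 238, 247 and 249.7 normalized CPM in wild type, with a log2 fold change of -0.02 (95% interval -0.21 to 0.17, adjusted p = 0.85). egl lies on 2R from 23734904 to 23746829, and BicD on 2L from 17459605 to 17473215, both on the minus strand.

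A ratio of TPM within a library does not depend on how libraries are scaled to each other. The ratio of egl to BicD was 0.589, 0.575 and 0.611 in mutant ovaries, against 0.823, 0.829 and 0.789 in wild-type ovaries. The mutant mean was 0.727 of the wild-type mean, and the groups did not overlap (p = 0.1 by the same exact permutation test, its lower limit; 0.125 after Benjamini-Hochberg adjustment over 5 such measures). In OSCs the ratio lay between 0.436 and 0.538. The ratio of bcd to exu was 0.0807, 0.136 and 0.171 in mutants and 0.178, 0.183 and 0.183 in wild type, also without overlap (exact permutation test, p = 0.1). Its mutant values spread widely, whereas the wild-type values were almost the same. The ratio of grk to sqd was 0.0631, 0.0617 and 0.0626 in mutants and 0.0899, 0.0661 and 0.0654 in wild type (exact permutation test, p = 0.1), and that of osk to stau overlapped between the groups (p = 0.2 in the same exact test).

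**Figure D3:**
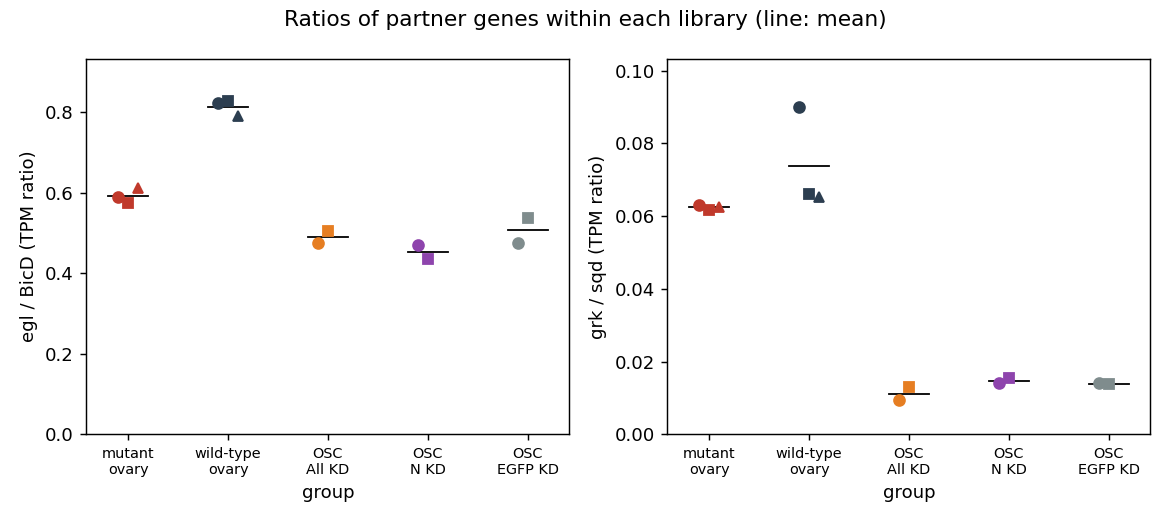
Ratio of egl to BicD (left) and of grk to sqd (right), each from TPM within a library, with 1 point per library and a line at the group mean; both axes start at 0. The egl to BicD ratio lies between 0.575 and 0.611 in mutant ovaries and between 0.789 and 0.829 in wild-type ovaries.

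The 3 calls rested on few libraries. Without mutant replicate 2 none of the 10 genes was called and calls over all genes fell to 173, and without wild-type replicate 2 none was called and the total was 177. egl was called in each of the 4 other fits that left out a library. sqd was called without mutant replicate 1 and without mutant replicate 3 but not without wild-type replicate 1 or 3, and bcd was called without mutant replicate 3 alone. Their directions held in all 6 fits. With no filter on low counts bcd was not called (adjusted p = 0.057). With the replicate number as a block the same 3 genes were called, among 2279 genes in all. The summed late follicle and germline markers moved with the groups as given above, and their part in these changes was not tested.

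Other genes of the localization pathway were taken from 8 lists, of which 62 of 63 symbols were matched. Of the 62, 4 were called higher and 6 lower in mutant ovaries, which is 16.1% against 18.1% of all genes, with a median log2 fold change of -0.01. All 10 of these calls were lost without mutant replicate 2 and without wild-type replicate 2, with their directions kept. The called genes with the largest changes and no overlap were lsn, Hrb27C and tud, all higher, and capu, pgc and vas, all lower. lsn, a subunit of the ESCRT-II complex that binds bcd mRNA, was at 34.3, 27.9 and 29.8 normalized CPM in mutants, against 19.9, 16.4 and 20.6 normalized CPM in wild type (log2 fold change 0.69, SE 0.14, adjusted p = 0.023). The other ESCRT-II genes of the list of 3 were not called.

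Hrb27C, an hnRNP that works with Sqd on osk and grk mRNA, was at 2561, 2001 and 1892 normalized CPM in mutants, against 1434, 1554 and 1424 normalized CPM in wild type (log2 fold change 0.55, SE 0.14, adjusted p = 0.038). In the same list of 12 mRNP factors fs(1)K10, which is needed to place grk mRNA, was called lower with a log2 fold change of -0.44, and 10 were not called. tsu, a core protein of the exon junction complex that is loaded on osk mRNA, was called higher at 0.37 (not with the replicate block, adjusted p = 0.055), and the other 3 genes of that list were not called. None of 18 motor and microtubule genes, which include the dynein and kinesin machinery, was called, with log2 fold changes between -0.35 and 0.72.

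Of 8 genes of pole plasm and posterior patterning, 1 was called higher and 3 lower. tud, a scaffold of polar granules, was at 619, 494 and 482 normalized CPM in mutants, against 346, 349 and 416 normalized CPM in wild type (log2 fold change 0.52, SE 0.13, adjusted p = 0.039). pgc, whose product silences transcription in germ cell precursors, was at 165, 168 and 177 normalized CPM in mutants, against 224, 251 and 258 normalized CPM in wild type (log2 fold change -0.53, SE 0.08, adjusted p = 0.013). vas was at 166, 166 and 138 normalized CPM in mutants, against 226, 209 and 229 normalized CPM in wild type (log2 fold change -0.50, SE 0.10, adjusted p = 0.022), and pum, a repressor of translation, was called lower at -0.46.

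capu, a formin that nucleates the actin mesh of the oocyte, was at 32.0, 35.3 and 37.8 normalized CPM in mutants, against 50.1, 47.4 and 58.0 normalized CPM in wild type (log2 fold change -0.57, SE 0.11, adjusted p = 0.022). Among 8 cortical polarity genes, baz was called lower at -0.30 and 7 were not called. None of 6 genes of Grk secretion and reception was called, with log2 fold changes between -0.07 and 0.89.

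**Figure D4:**
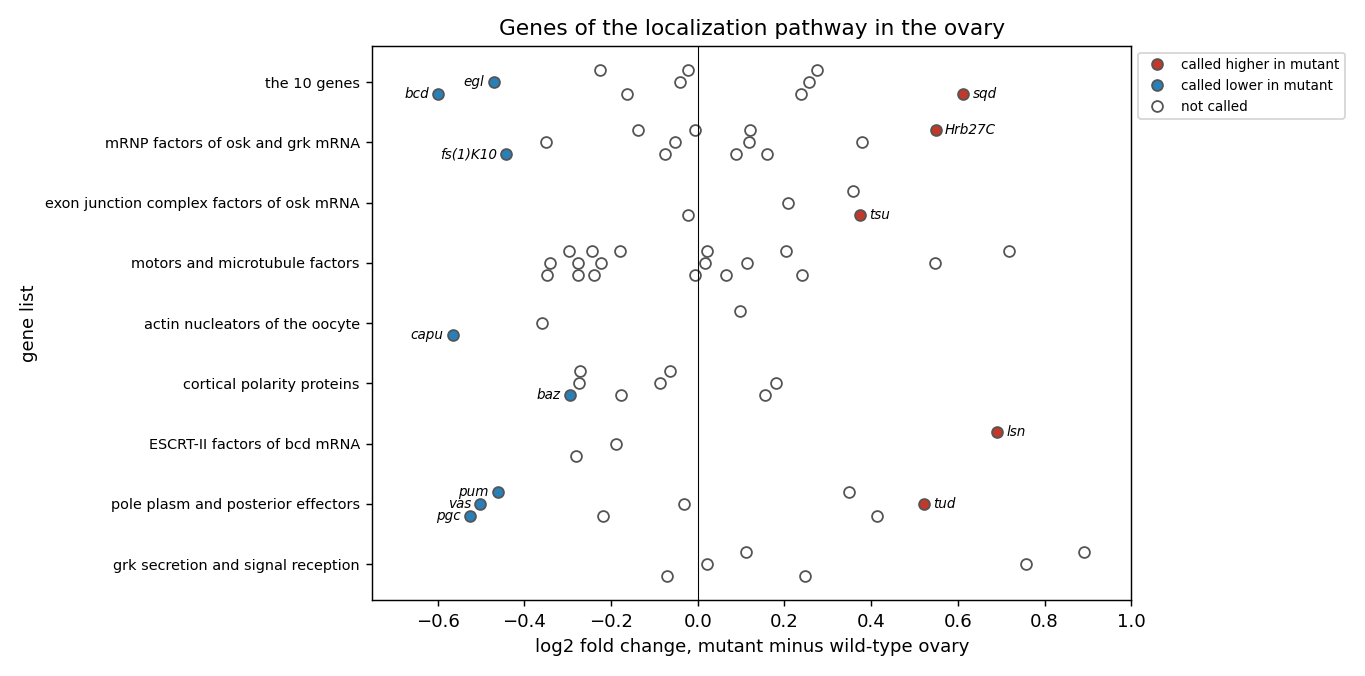
Log2 fold change, mutant minus wild-type ovary, of the 10 genes and of the genes of 8 pathway lists, 1 point per gene; filled points were called at an adjusted p under 0.05 (red higher, blue lower in mutants) and open points were not. Called genes lie between -0.60 and 0.69, and the list of motors and microtubule factors holds open points alone.

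In OSCs, the knockdowns ask whether loss of Mod(mdg4) changes the same genes in follicle-derived cells. No member was called in Mod(mdg4)-N KD against EGFP KD, where 7 of the 10 passed the filter on low counts and 0.0247% of 8106 genes (2 genes) were called. By edgeR at an unadjusted p under 0.05 none of the 7 passed either, and DESeq2 also called none of them. osk, orb and swa were below the filter. The widest interval of the 7 was that of exu, from -0.80 to 0.36 around a log2 fold change of -0.22, and the narrowest was that of stau, from -0.13 to 0.19 around 0.03.

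bcd was at 14.2 and 16.7 normalized CPM in Mod(mdg4)-N KD, against 13.1 and 13.7 normalized CPM in EGFP KD (log2 fold change 0.20, 95% interval -0.11 to 0.51). egl was at 50.0 and 45.6 normalized CPM in Mod(mdg4)-N KD, against 47.2 and 54.6 normalized CPM in EGFP KD (-0.09, 95% interval -0.32 to 0.15). sqd was at 1098 and 981 normalized CPM in Mod(mdg4)-N KD, against 1079 and 972 normalized CPM in EGFP KD (0.02, 95% interval -0.18 to 0.22). Of the 7 genes, bcd, grk, stau and BicD had groups without overlap, all higher in Mod(mdg4)-N KD, as groups were apart for 27.5% of all genes tested in either direction. By TPM bcd alone of the 7 had groups without overlap.

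Whether the effect of variant N loss differed between ovaries and OSCs was tested as an interaction over 10 libraries. None of the 10 genes was called, where 3.31% of 9011 genes were. At an unadjusted p under 0.05 (edgeR interaction term) 3 of the 10 passed, as did 1935 of the 9011 genes. For bcd the ovary effect minus the OSC effect was -0.81 on the log2 scale (SE 0.25, adjusted p = 0.11), for sqd it was 0.58 (SE 0.20, adjusted p = 0.15) and for egl it was -0.39 (SE 0.14, adjusted p = 0.17). bcd passed with DESeq2 (adjusted p = 0.024), with the replicate block (0.031) and without mutant replicate 3 (0.043), and sqd passed by TPM (0.036). swa could not be compared, since it had no count in these OSC libraries.

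In Mod(mdg4)-All KD against EGFP KD, 9 of the 10 genes passed the filter and none was called, where 1.1% of 8126 genes (89) were. osk had 15 and 20 counts in Mod(mdg4)-All KD, against 4.97 and 9 counts in EGFP KD, and 13 and 13 counts in Mod(mdg4)-N KD. Its groups did not overlap, as was so for 45.0% of all genes. Its log2 fold change of 1.56 (SE 0.49) was not called (edgeR, unadjusted p of 0.017, adjusted p of 0.27). osk passed the filter only through the Mod(mdg4)-All KD libraries, where it is high, so these values describe its level and support no rise. At this depth 3 counts correspond to 0.162 to 0.219 CPM, so osk lay near the floor in EGFP KD and higher above it in both knockdowns. The other 8 tested genes had log2 fold changes between -0.24 (grk) and 0.24 (exu).

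grk was at 4.56 and 6.07 normalized CPM in Mod(mdg4)-All KD, against 6.73 and 5.88 normalized CPM in EGFP KD (log2 fold change -0.24, 95% interval -0.83 to 0.34). sqd was at 1071 and 1064 normalized CPM in Mod(mdg4)-All KD, against 1076 and 963 normalized CPM in EGFP KD (0.07, 95% interval -0.16 to 0.29). egl was at 48.2 and 48.3 normalized CPM in Mod(mdg4)-All KD, against 47.1 and 54.1 normalized CPM in EGFP KD (-0.07, 95% interval -0.32 to 0.19). The knockdowns share the EGFP KD libraries, so their values against that control are not independent of each other.

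Mod(mdg4)-All KD was set against Mod(mdg4)-N KD to see what the loss of the other variants adds. None of the 8 tested members was called, where 1.15% of 8118 genes (93) were. Their log2 fold changes lay between -0.35 (grk) and 0.65 (osk). Here too osk passed the filter only through the Mod(mdg4)-All KD libraries. Of the 62 pathway genes, 60 were tested in each OSC comparison, and 14-3-3zeta, a binding protein of the cortical polarity pathway, was the only one called. It was at 1134 and 1086 normalized CPM in Mod(mdg4)-All KD, against 1568 and 1627 normalized CPM in Mod(mdg4)-N KD (log2 fold change -0.53, SE 0.07, adjusted p = 0.034). The call was lost without either Mod(mdg4)-N KD library (adjusted p = 0.35 and 0.42) and with the replicate block (0.22).

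**Figure D5:**
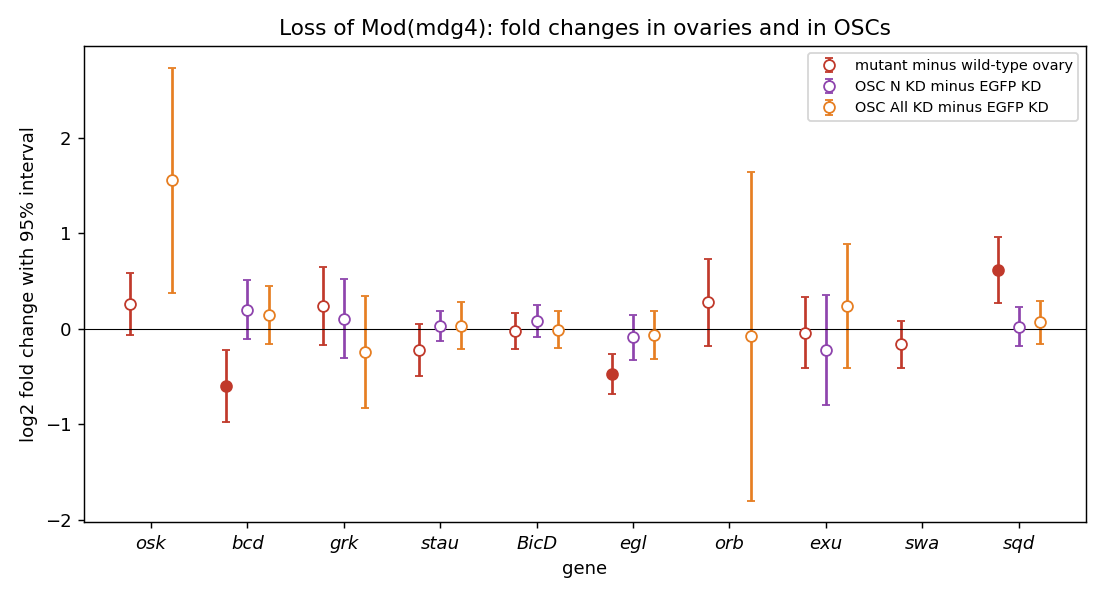
Log2 fold change with 95% interval of the 10 genes in mutant against wild-type ovaries (red), Mod(mdg4)-N KD against EGFP KD (purple) and Mod(mdg4)-All KD against EGFP KD (orange); filled points were called and genes below the filter have no point. The filled points are bcd and egl below 0 and sqd above 0, all in ovaries, and the osk point at 1.56 rests on 4.97 to 20 counts a library. That point passed the filter only through the Mod(mdg4)-All KD libraries.

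The pathway lists differed between wild-type ovaries and EGFP KD OSCs in a larger share of their genes than all genes did. Of the 62 genes, 29 were called higher and 22 lower in ovaries, which is 82.3% against 68.8% of all genes. otu, which acts in germ cells on grk mRNA, was at 205, 223 and 253 TPM in wild-type ovaries and had no count in EGFP KD, at least 6169-fold higher with 3 counts as floor. wisp, the cytoplasmic poly(A) polymerase of the oocyte, was at 210.0, 239 and 266 TPM in wild-type ovaries, against 0.21 and 0.22 TPM in EGFP KD (log2 fold change 10.00, SE 0.17). gammaTub37C, the maternal gamma-tubulin, was at 44.7, 55.3 and 90.2 TPM in wild-type ovaries, against 0 and 1 count in EGFP KD. otu, wisp and gammaTub37C likewise passed the filter on low counts only through the ovary libraries.

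The genes called lower in ovaries with the largest change were mirr, Egfr and chic. mirr, a homeodomain gene that follicle cells switch on in response to Grk, was at 1.23, 1.55 and 1.53 TPM in wild-type ovaries, against 36.7 and 35.0 TPM in EGFP KD (log2 fold change -4.73, SE 0.11). Egfr, the receptor of Grk, was at 7.77, 5.84 and 4.45 TPM in wild-type ovaries, against 38.2 and 31.4 TPM in EGFP KD (log2 fold change -2.65, SE 0.27). chic, the fly profilin, was at 842, 891 and 832 TPM in wild-type ovaries, against 2751 and 3206 TPM in EGFP KD (log2 fold change -2.11, SE 0.11). The ligand gene grk was thus higher in ovaries and its receptor gene higher in the follicle-derived line.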

How the data were processed

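Poly(A)+ RNA of 6 ovary and 6 OSC libraries was sequenced in pairs after a stranded kit, and the authors mapped the reads to dm6 with RSEM and STAR, whose versions and annotation are not given in the sources used here. The deposited tables give, for each library and gene, the RSEM expected count (15.7% of values above 0 are not whole), TPM and effective length in bases. The deposited FPKM column, which RSEM also wrote, was not used, nor were the ChIP-seq and Micro-C data. Gene symbols and places came from Ensembl release 115 (BDGP 6.54, the same assembly as dm6), which named 17710 of the 17807 genes. Upstream sequence came from the RefSeq Release 6 genome, and 1 upstream window is not reported here.

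Expected counts were rounded and tested in edgeR 4.0.16 (R 4.3.3) with TMM normalization and the quasi-likelihood F test, on genes with more than 1 CPM in at least as many libraries as the smaller group holds (in at least 2 for the interaction). P-values were adjusted over all genes tested (Benjamini-Hochberg), and a gene was called at an adjusted p under 0.05 with no fold threshold. The SE is the log2 fold change over the root of F. TPM was tested with limma 3.58.1 on log2(TPM + 1), which understates the change of low genes. DESeq2 1.42.0, RLE size factors, a newer edgeR algorithm, no filter, the replicate block and leaving out each library were alternatives. Ratios and effective lengths were compared by exact two-sided permutation in SciPy 1.17.1. The fits were tested on simulated data.

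Totals lay between 16456288 and 20244538 counts in ovaries and between 13728168 and 18546726 in OSCs, where 3 counts, taken as the floor, are 0.148 to 0.219 CPM. Floors cover counting error only, since reads carried no molecular identifiers. Groups came from the labels. Same-numbered ovary libraries deviated together (r = 0.21, 0.34 and 0.27 across genes), a sign of pairing from the data alone. The main fits and the permutation tests left the number out. It entered the replicate block and the differences within same-numbered pairs. The 10 genes and the lists were chosen with earlier results of these data known. The text names all 10 genes, the 3 called pathway genes with the largest change in each direction and no overlap (up to 3 called in each OSC comparison), and the gene most correlated with each of the 10. Other pathway genes named by their call alone were chosen after their values were seen. A gene of the lists with no match in the tables is not reported here.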

Additional observations from a re-analysis of the deposited data

Results flagged for a closer look

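A pair of germline markers changed differently with the loss of variant N in ovaries and in OSCs. For bam, a switch of germline stem cell differentiation, the ovary effect minus the OSC effect was 2.13 on the log2 scale (adjusted p = 0.0030, edgeR interaction term). bam was at 90.2, 100.3 and 98.6 TPM in mutant ovaries, against 22.2, 28.2 and 34.7 TPM in wild-type ovaries, and at 5.31 and 5.39 TPM in Mod(mdg4)-N KD, against 7.35 and 7.28 TPM in EGFP KD. For del, a partner of the piRNA factor Rhi, the difference was 0.91 (adjusted p = 0.041), and the call was lost when any library other than mutant replicate 3 or wild-type replicate 2 was left out (adjusted p from 0.057 to 0.18 in edgeR) and with RLE size factors (0.051). None of the 10 genes met this test.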

How the results depend on the processing

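Over the alternatives, 582 fold changes of the 10 genes kept their direction and their side of the threshold, 4 gained a call, 17 lost one and 27 changed sign. Of the other genes named for their calls, 165 fold changes kept their call, 59 lost it and none changed sign. None of the values that changed sign was called in either fit, and the causes of the changes were not tested. In ovaries 1438 genes were called, against 2365 with DESeq2 and 2279 with the replicate block, and 1 of the 10 genes (sqd) was called on the TPM scale. Of called genes 64.6% were higher in mutants, against 83.4% on the TPM scale and 51.4% with the block. In Mod(mdg4)-N KD against EGFP KD the 2 calls became 7 with DESeq2, 26 with no filter, 14 with the block and 0 with all OSC groups in a single fit (edgeR, where 228 genes had an unadjusted p under 0.05 with 2 groups). In Mod(mdg4)-All KD against EGFP KD the 89 calls became 230 with DESeq2, 188 with no filter, 144 by TPM, 166 with the block and 178 in the single fit. Between the knockdowns the 93 calls became 214 with DESeq2, 505 with no filter and 28 with the block. Replicate numbers there ran against each other (r = -0.15), and crossed pairing, chosen after seeing the data, gave 257 calls. OSC numbers otherwise correlated at 0.19 and 0.15 and were taken as numbers only. For the interaction the 298 calls became 864 with DESeq2, 772 by TPM and 676 with the block, and 1 of the 10 genes was called by each (bcd, sqd and bcd in that order); 75.8% of the calls had the higher effect in ovaries, against 87.6% by TPM. The block changed no other call of the 10 genes, and tsu lost its call in ovaries (adjusted p = 0.055).

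By TPM the sign changed for BicD in ovaries (0.016), for stau (-0.013) and sqd (-0.022) in Mod(mdg4)-N KD, for stau (-0.070) and sqd (-0.022) in Mod(mdg4)-All KD against EGFP KD, for egl between the knockdowns (-0.029), and for the osk interaction (0.11). With each library left out, calls ranged from 173 to 1446 in ovaries, 3 to 45 in Mod(mdg4)-N KD, 20 to 293 in Mod(mdg4)-All KD, 12 to 568 between the knockdowns and 19 to 432 for the interaction, and called members from 0 to 3 in ovaries and 0 to 1 for the interaction. Log2 fold changes then ranged in ovaries from -0.047 to 0.028 for BicD and -0.23 to 0.071 for exu, in Mod(mdg4)-N KD from -0.19 to 0.021 for egl, -0.44 to 0.024 for exu and -0.064 to 0.10 for sqd. In Mod(mdg4)-All KD against EGFP KD they ranged from -0.057 to 0.028 for BicD, -0.17 to 0.034 for egl, -0.78 to 0.26 for orb, -0.014 to 0.15 for sqd and -0.091 to 0.14 for stau. Between the knockdowns they ranged from -0.18 to 0.052 for bcd, -0.049 to 0.081 for egl, -0.039 to 0.12 for sqd and -0.12 to 0.10 for stau, and for the interaction from -0.055 to 0.41 for exu and -0.85 to 1.18 for orb. A lone library in such a fit is assumed to vary like the others. In OSCs the depth limits osk, orb and swa, which had at most 24 counts.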
